A study of Mus musculus with 12 samples.

Results

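The AP-1 and immediate early genes described here were 10 genes chosen by name: Fos, Fosb, Fosl2, Jun, Junb, Jund, Egr1, Atf3, Ier2 and Ier3. All 10 were listed in both expression tables of the series, which together hold 17505 genes, and all 10 passed the filter on low values in both. Expression was measured by SMART-seq, which amplifies full-length cDNA, on 12 libraries of 1000 mouse cells each. In the genotype comparison, muscle stem cells (MuSCs) were sorted from male mice of 5 to 6 weeks, 3 of them wild-type (WT) and 3 Nedd4L-cKO. In Nedd4L-cKO mice (Nedd4L fl/fl Pax7 cre/+, on a C57BL/6 background) exon 15 of Nedd4l, which encodes part of the catalytic domain of this E3 ubiquitin ligase, is removed in cells that express Pax7. Whether the WT mice carried the Cre or the floxed allele is not given in the sources used here. In the culture comparison, freshly sorted MuSCs of 3 other WT mice, whose age is not stated, were set against primary myoblasts grown for 3 days in serum with bFGF. Fresh and myoblast libraries share numbers in their labels, which are read here as the same 3 mice. Fresh MuSCs of all groups were obtained by enzymatic digestion of hindlimb muscle and FACS, while myoblasts were detached with trypsin. The tables were normalized separately, so levels from the 2 comparisons are set side by side without a test.

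Immediate early genes are transcribed within minutes of a stimulus without new protein synthesis. Fos and Jun family proteins pair through leucine zippers to form AP-1, a transcription factor that binds the DNA motif TGANTCA. Fos proteins need a Jun partner to bind DNA, whereas Jun proteins can also pair with each other or with Atf proteins. Their promoters are switched on by serum response factor and its partner Elk1, by CREB and by MAP kinases, and their mRNAs are short-lived. In muscle, these genes are known to be induced when MuSCs leave quiescence and also while tissue is being dissociated, so levels in sorted cells are levels after isolation.

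The genes differ in structure. Jun, Junb, Jund and Ier2 have a single exon in the GENCODE canonical transcript, Egr1 and Ier3 have 2, and Fos, Fosb, Fosl2 and Atf3 have 4. In GRCm39 coordinates, Fos lies at chr12:85520658-85524047, Fosb at chr7:19036621-19043976, Fosl2 at chr5:32292707-32315186, Jun at chr4:94937271-94940459 and Atf3 at chr1:190902493-190950241. Ier3 lies at chr17:36132568-36133815, and Junb (chr8:85701113-85705359), Ier2 (chr8:85387960-85389483) and Jund (chr8:71151599-71153265) share chromosome 8. Annotated genes overlap Fosl2, Jun, Junb, Jund, Atf3 and Ier3 on the opposite strand, among them the protein-coding Prdx2 at Junb and the antisense transcript Junos at Jun. The library kit does not mark strand, so reads of such pairs cannot be told apart where they overlap.

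Promoters were read from GRCm39, as the 500 bases upstream of the annotated start, because 9 of the 10 genes moved together in culture. Matches on either strand were searched for in all 10 genes and in 14891 protein-coding genes tested. The CArG box, the motif of serum response factor, was present in Fos and Fosb and in 2.61% of all promoters. TGACGTCA, the full cyclic AMP response element, was present in Ier2 and Jund and in 2.24% of all. GCGNGGGCG, the motif of Egr proteins, was present in Fosb, Jun and Jund and in 7.004% of all. TGANTCA was present in Fos alone among the 10 and in 10.6% of all promoters, and TATAAA in Fos and Junb and in 19.0%. The windows that hold the CArG box and the cyclic AMP response element are shown 5′ to 3′ on the strand of the gene, with every match to these 5 motifs in capitals. The Fos window spans chr12:85520348-85520642 (plus strand), the Fosb window chr7:19043992-19044256 (minus strand), the Ier2 window chr8:85389499-85389558 (minus strand) and the Jund window chr8:71151374-71151583 (plus strand).
Fos: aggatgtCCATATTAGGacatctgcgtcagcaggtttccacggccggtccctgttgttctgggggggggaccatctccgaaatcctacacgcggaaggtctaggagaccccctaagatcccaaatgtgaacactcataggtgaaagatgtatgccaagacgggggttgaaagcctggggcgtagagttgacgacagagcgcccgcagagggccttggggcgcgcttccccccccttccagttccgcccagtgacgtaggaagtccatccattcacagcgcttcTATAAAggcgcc
Fosb: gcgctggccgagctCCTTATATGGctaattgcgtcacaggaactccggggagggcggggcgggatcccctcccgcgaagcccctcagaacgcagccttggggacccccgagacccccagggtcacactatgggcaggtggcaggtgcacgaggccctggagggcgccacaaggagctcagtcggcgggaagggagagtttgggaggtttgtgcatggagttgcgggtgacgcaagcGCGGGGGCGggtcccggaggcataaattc
Ier2: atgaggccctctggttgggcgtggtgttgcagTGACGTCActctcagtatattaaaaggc
Jund: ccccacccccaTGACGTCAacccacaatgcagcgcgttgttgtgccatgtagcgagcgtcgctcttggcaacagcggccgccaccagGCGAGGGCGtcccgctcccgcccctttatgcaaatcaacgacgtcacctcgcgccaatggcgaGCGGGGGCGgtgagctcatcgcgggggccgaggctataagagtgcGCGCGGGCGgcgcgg
In Fos the CArG box lies 303 to 294 bases upstream of the start and in Fosb 266 to 257 bases upstream. The cyclic AMP response element begins 43 bases upstream in Ier2 and 214 bases upstream in Jund, and Jund carries 3 Egr motifs. A match is a description of the letters and not evidence of binding. Only bases upstream of the canonical start were read, so a gene without a match, such as Egr1, may carry the motif elsewhere.

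Total normalized counts per library were 40323500 to 50687100 in the genotype table and 33189800 to 37595700 in the culture table, and the read depth is unknown. Levels are given as RPM, the normalized counts scaled per 1e6 of the mean library total of a table. Nedd4l, the deleted gene, was at 70.2, 96.4 and 66.7 RPM in WT and at 30.2, 36.3 and 22.5 RPM in Nedd4L-cKO MuSCs (log2 fold change −1.37, SE 0.28, adjusted p = 0.0467). The call was lost in 11 of 18 alternatives (adjusted p up to 0.197), among them the omission of WT replicates 1 or 2 or of any Nedd4L-cKO library, and the whole gene was counted, not exon 15. The 10 MuSC markers summed to 4192 to 7916 RPM in WT, 2881 to 6586 RPM in Nedd4L-cKO and 4913 to 7208 RPM in fresh MuSCs, against 806 to 901 RPM in myoblasts. Ptprc, which defines immune cells, averaged at most 0.383 RPM in any group, while the macrophage gene Lyz2 reached 33.6 RPM in WT replicate 3 and 0.00 to 5.75 RPM in the other libraries of the genotype table. Of the endothelial markers, Kdr and Emcn were not listed in either table, but Tek averaged 60.0 RPM in WT and 23.0 RPM in Nedd4L-cKO and Pecam1 18.7 and 31.8 RPM. Pdgfra, which defines fibro-adipogenic progenitors, averaged 0.697 and 0.633 RPM in WT and Nedd4L-cKO and 1.19 and 1.33 RPM in fresh MuSCs and myoblasts. Other markers of its list went the other way, led by Dcn at 840 and 1030 RPM in WT and Nedd4L-cKO. The 7 markers summed on average to 2223 and 2185 RPM there, and the mural gene Rgs5 averaged 628 and 1190 RPM. Low Pdgfra alone therefore does not show these pools to be free of such cells.

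Fos was the most abundant of the 10 in all freshly sorted MuSCs, and its lead disappeared in culture. On the scale of RPM per kb of canonical transcript, which allows levels of different genes to be compared, Fos averaged 1603 in WT MuSCs, where it ranked 28 of 16104 genes, and 2826 in the fresh MuSCs of the culture table, where it ranked 6 of 16437 genes. In WT MuSCs, Junb (426 RPM per kb), Ier2 (254), Egr1 (190), Fosb (167), Atf3 (112) and Jun (88.9) followed, and each of these levels overlapped its neighbour in the order across libraries. Fos stood above Junb without overlap, and a further gap separated Jun from Jund (37.5 RPM per kb), Fosl2 (33.7) and Ier3 (28.7), which overlapped. In Nedd4L-cKO MuSCs Fos again ranked 28 of 16104 genes (2094 RPM per kb). In myoblasts Junb (74.2 RPM per kb) and Jun (67.4) led with overlapping libraries, Fos averaged 8.57 RPM per kb, and Fosb was the lowest at 0.152.

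**Figure D1:**
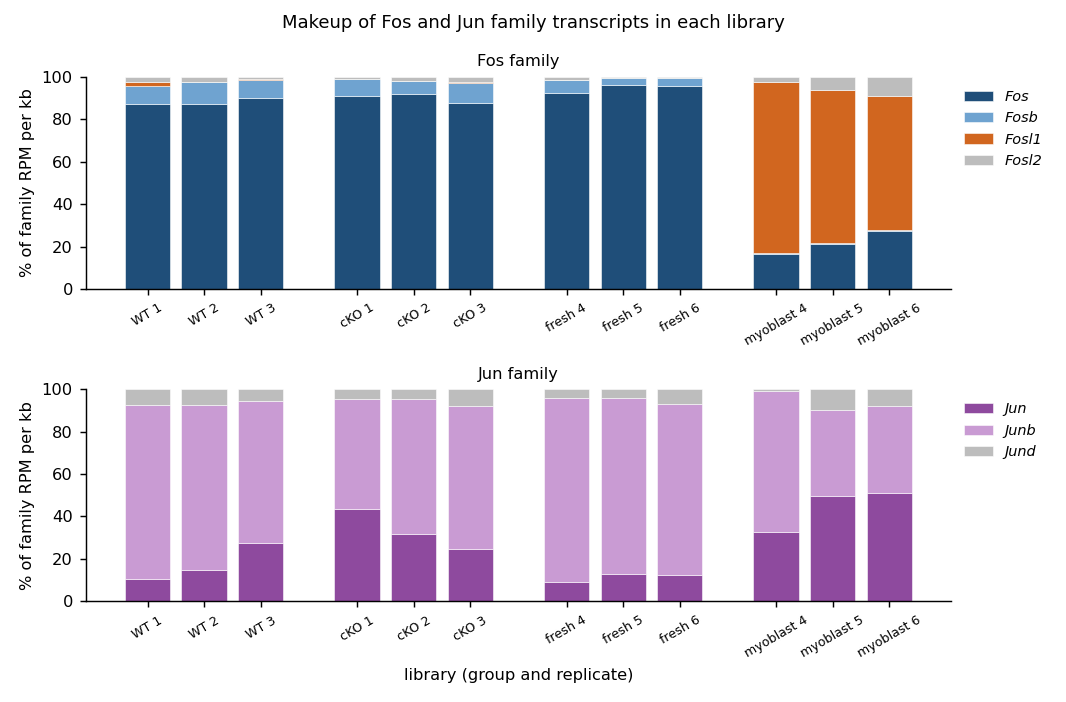
Share of each gene in the summed RPM per kb of the Fos family (upper panel) and the Jun family (lower panel), in percent, for each of the 12 libraries, labelled by group and replicate. Fos made up 87.1% to 96.3% of the Fos family in the 9 fresh libraries and Fosl1 made up 63.0% to 80.9% in the 3 myoblast libraries.

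Fos transcripts dominated the Fos family in fresh MuSCs and Fosl1 transcripts in myoblasts. Fosl1, which encodes Fra-1 and is not among the 10 genes, is included in these shares because it completes the Fos family. In fresh MuSCs of the culture table, Fos made up 92.5%, 96.3% and 96.0% of Fos family RPM per kb, and in myoblasts 16.4%, 21.3% and 27.5%. Fosl1 made up 0.164%, 0.0646% and 0.0427% in fresh MuSCs and 80.9%, 72.2% and 63.0% in the myoblasts of the same numbers. The summed level of the family was 2017 to 3608 RPM per kb in fresh MuSCs and 32.4 to 52.3 in myoblasts. Within the Jun family, Junb made up 87.1%, 83.1% and 80.7% in fresh MuSCs and 66.6%, 40.6% and 40.6% in myoblasts, where Jun made up 32.9%, 49.5% and 51.3%. The summed Jun family stood at 727 to 1253 RPM per kb in fresh MuSCs and at 147 to 158 in myoblasts. In the genotype table, Fos made up 87.1%, 87.4% and 90.1% of its family in WT and 90.9%, 91.9% and 88.0% in Nedd4L-cKO MuSCs, which overlap. Junb made up 82.4%, 78.0% and 67.3% of its family in WT and 51.9%, 63.5% and 67.6% in Nedd4L-cKO, which overlap in 1 library of each group.

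The genotype comparison asks what loss of Nedd4L changes in MuSCs before any culture. Of the 10 genes, Ier3 was higher in Nedd4L-cKO MuSCs, none was called lower, and the other 9 did not pass the test. A call required an adjusted p no higher than 0.05, a log2 fold change of 1 or more in either direction and an average over the 6 libraries of 5 RPM or more. Over all 15304 genes tested, 0.451% were called higher and 0.203% lower. Ier2 and Ier3 had groups that did not overlap, 2 of 10 genes, beside 19.3% of all genes tested. The median log2 fold change of the 10 genes was 0.13 and that of all genes tested was 0.00.

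**Figure D2:**
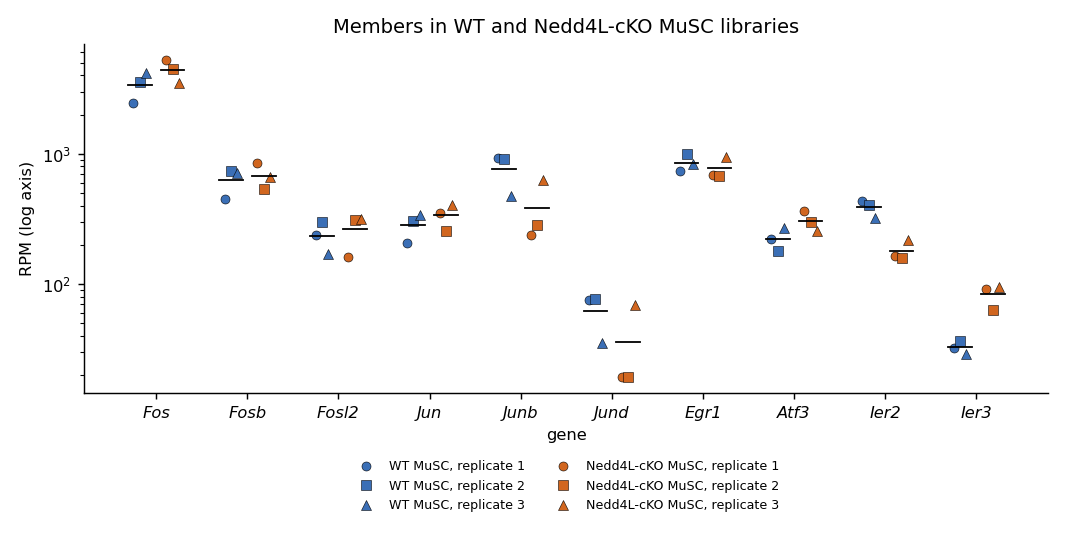
RPM of the 10 genes (log axis) in 3 WT (blue) and 3 Nedd4L-cKO (orange) MuSC libraries, with symbols for replicates and horizontal lines for group means. Ier3 (28.9 to 36.8 RPM in WT, 63.0 to 94.5 in Nedd4L-cKO) and Ier2 (322 to 432 and 159 to 217) are the genes whose groups do not overlap.

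Among the Ier genes, Ier3 encodes a short-lived protein that modulates survival and ERK signalling. It measured 32.3, 36.8 and 28.9 RPM in WT and 92.4, 63.0 and 94.5 RPM in Nedd4L-cKO MuSCs. The Nedd4L-cKO libraries all lay above the highest WT library (log2 fold change 1.31, SE 0.26, adjusted p = 0.0467). The call was near the threshold, with adjusted p from 0.0207 to 0.134 over 18 alternatives, and it was lost when any single library was left out (0.0842 to 0.134). Ier2 encodes a nuclear protein induced by growth factors. It measured 432, 407 and 322 RPM in WT and 165, 159 and 217 RPM in Nedd4L-cKO. Every Nedd4L-cKO library lay below every WT library, but the gene did not pass the threshold (log2 fold change −1.10, SE 0.25, adjusted p = 0.0651, range 0.0385 to 0.265 over 18 alternatives). It passed without Nedd4L-cKO replicate 3 (log2 fold change −1.24, adjusted p = 0.0448).

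None of the 3 Fos family members passed the test between genotypes, and all 3 overlapped. Fos measured 2461, 3548 and 4161 RPM in WT and 5261, 4501 and 3520 RPM in Nedd4L-cKO MuSCs. The interval of the difference ran from −0.19 to 0.99 on the log2 scale (log2 fold change 0.40, adjusted p = 0.531). Fosb, a close relative that needs the same Jun partners, measured 449.8, 732 and 709.9 RPM in WT and 844, 533 and 665 RPM in Nedd4L-cKO. Fosl2, which encodes Fra-2, measured 236, 299 and 169 RPM in WT and 160.2, 313 and 317 RPM in Nedd4L-cKO. Their log2 fold changes were 0.12 (interval −0.49 to 0.72) and 0.14 (interval −0.56 to 0.84), whose sign changed in 3 of 18 alternatives each.

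No Jun family member passed the test between genotypes, although 2 of 3 Nedd4L-cKO libraries lay below all WT libraries for Junb and for Jund. Jun, the founding member, measured 206, 304 and 341 RPM in WT and 352, 253 and 403 RPM in Nedd4L-cKO, which overlap (log2 fold change 0.25, interval −0.36 to 0.86). Junb, which is itself immediate early, measured 929.8, 905 and 476 RPM in WT and 239, 286 and 632 RPM in Nedd4L-cKO. Replicate 3 of each genotype crossed the other group, and the difference did not pass the test (log2 fold change −1.07, SE 0.38, adjusted p = 0.234). Jund, the member that most cells express without a stimulus, measured 75.3, 77.0 and 35.2 RPM in WT and 19.4, 19.3 and 68.8 RPM in Nedd4L-cKO. The same libraries stood out (log2 fold change −0.97, SE 0.47, adjusted p = 0.379). Without Nedd4L-cKO replicate 3 the log2 fold changes were −1.49 for Junb (adjusted p = 0.0588) and −1.56 for Jund (adjusted p = 0.0842). That library was the highest of its group for 7 of the 10 genes: Fosl2, Jun, Junb, Jund, Egr1, Ier2 and Ier3.

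**Figure D3:**
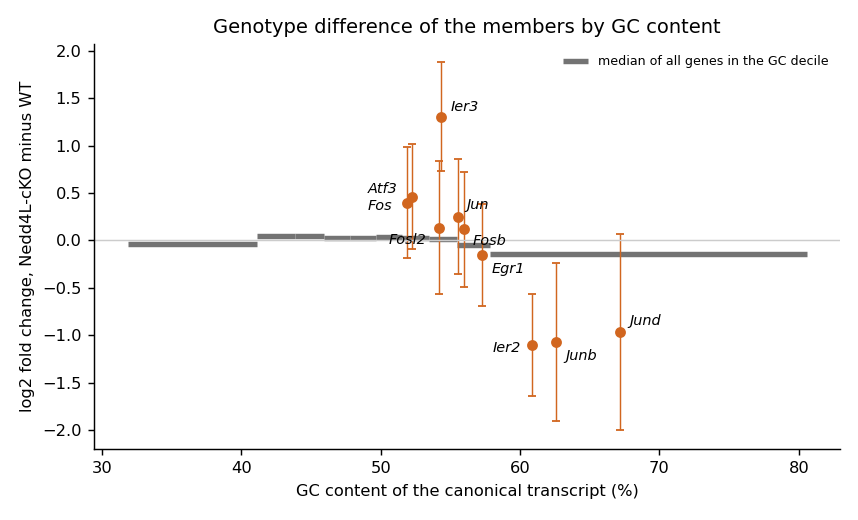
Log2 fold change between Nedd4L-cKO and WT MuSCs (points with 95% intervals) against GC content of the canonical transcript for the 10 genes, with the median of all tested genes in each GC decile as grey bars. Ier2, Junb and Jund, at 60.9%, 62.6% and 67.2% GC, have log2 fold changes of −1.10, −1.07 and −0.97 and lie in the top decile, whose median is −0.14.

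These 3 low genes were also the 3 of highest GC content, at 60.9% for Ier2, 62.6% for Junb and 67.2% for Jund, while the other 7 lay between 51.9% and 57.3%. They fell in the top decile of genes by GC content, whose median log2 fold change was −0.14. Relative to their gene means, the 1525 genes of that decile deviated by 0.22, 0.07 and −0.04 on the log2 scale in WT replicates 1, 2 and 3 and by −0.15, −0.16 and 0.07 in Nedd4L-cKO replicates 1, 2 and 3. Within each genotype, replicate 3 was at the same end as for Junb and Jund, and the part of base composition in those values was not tested beyond the correction that follows. After each library was centred within bins of GC content, the log2 fold changes were −0.88 for Ier2 (adjusted p = 0.0901), −0.85 for Junb (adjusted p = 0.258) and −0.75 for Jund (adjusted p = 0.427). Ier3, at 54.3% GC, kept its value under the same correction (1.31, adjusted p = 0.0416).

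Egr1 and Atf3, which lie outside the Fos and Jun families, did not pass the test either. Egr1, a zinc finger factor induced through serum response factor, measured 735, 994 and 839.9 RPM in WT and 690.1, 681 and 952 RPM in Nedd4L-cKO. The groups overlapped (log2 fold change −0.15, interval −0.69 to 0.39). Atf3, which responds to stress and dimerizes with Jun proteins, measured 220.4, 180.0 and 267 RPM in WT and 366, 298 and 255 RPM in Nedd4L-cKO. Nedd4L-cKO replicate 3 lay below the highest WT library (log2 fold change 0.46, interval −0.09 to 1.02, adjusted p = 0.431).

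Lists of related genes, which were chosen with earlier results of these data known, also held few calls between genotypes. None of 22 tested genes of the wider AP-1 superfamily passed. The same held for 31 genes of the MAP kinase and serum response factor input and 17 genes for AP-1 turnover and cofactors. Over all genes tested, 0.451% were called higher and 0.203% lower. A lack of calls in lists of this size is near that share. The median log2 fold changes of these lists were −0.08, −0.06 and −0.24, in that order. The kinase Map3k8 narrowly missed the threshold (log2 fold change 1.38, adjusted p = 0.05003). It measured 19.7, 17.3 and 24.5 RPM in WT and 63.8, 63.5 and 40.1 RPM in Nedd4L-cKO, without overlap. Of the 31 genes of its list, 14 had a log2 fold change above 0 and 17 below. Atf4, the effector of the integrated stress response, measured 131, 119 and 113 RPM in WT and 201, 196 and 190.0 RPM in Nedd4L-cKO. It did not pass (log2 fold change 0.69, adjusted p = 0.195).

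Of 52 other immediate early genes, 3 rose in Nedd4L-cKO MuSCs and none fell, beside 0.451% and 0.203% of all genes tested. Gadd45g, a growth arrest and DNA damage response gene, measured 141, 94.9 and 92.6 RPM in WT and 465, 454 and 293 RPM in Nedd4L-cKO (log2 fold change 1.87, SE 0.28, adjusted p = 0.0124). Ier5 measured 23.6, 7.53 and 12.1 RPM in WT and 41.5, 58.8 and 52.1 RPM in Nedd4L-cKO (log2 fold change 1.87, adjusted p = 0.0462). Klf2, a Krüppel-like factor, measured 7.15, 3.74 and 6.59 RPM in WT and 23.6, 16.9 and 25.1 RPM in Nedd4L-cKO (log2 fold change 1.76, adjusted p = 0.0401). Ier5 and Klf2 lost the call in 13 and 9 of 18 alternatives, and Gadd45g in 2, without WT replicate 2 (adjusted p = 0.0513) and without Nedd4L-cKO replicate 2 (adjusted p = 0.0874). The phosphatase Dusp1, the nuclear receptor Nr4a1 and Myc were lower in all 3 Nedd4L-cKO libraries than in every WT library, with log2 fold changes of −0.87, −1.14 and −0.92, and did not pass (adjusted p = 0.155, 0.176 and 0.208). Ppp1r15a was lower likewise (log2 fold change −0.36, adjusted p = 0.488). For Nr4a1 the separation was narrow, at 235.8 RPM in Nedd4L-cKO replicate 3 and 236.6 RPM in WT replicate 3. In the other direction, Klf4, Gadd45b and Ier5l were higher in all 3 Nedd4L-cKO libraries than in every WT library. Their log2 fold changes were 0.56, 0.40 and 0.94, and they did not pass either (adjusted p = 0.319, 0.454 and 0.217). In all, 10 of the 52 genes did not overlap between genotypes, a share close to the 19.3% of all genes tested.

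Of 22 tested genes described as AP-1 targets, 4 rose in Nedd4L-cKO MuSCs: Il6, Ccl2, Mt1 and Mt2. Over all genes tested, 0.451% were called higher. This list too was chosen with earlier results known, so its count is not independent of these data. Ccl2, a chemokine, measured 25.6, 41.0 and 23.7 RPM in WT and 172, 177 and 135 RPM in Nedd4L-cKO (log2 fold change 2.42, SE 0.28, adjusted p = 0.00296). Il6, a cytokine, measured 2.52, 4.72 and 10.03 RPM in WT and 39.7, 58.3 and 24.0 RPM in Nedd4L-cKO (log2 fold change 2.70, SE 0.44, adjusted p = 0.0225). The metallothionein Mt1 measured 958, 898 and 1059 RPM in WT and 3115, 3620 and 2293 RPM in Nedd4L-cKO (log2 fold change 1.61, adjusted p = 0.0149). Ccl2 kept its call in all 18 alternatives, whereas Il6 lost it in 4 and Mt1 in 3, both without WT replicate 2 (adjusted p = 0.0635 and 0.0717) and without Nedd4L-cKO replicate 2 (adjusted p = 0.105 for each). Il6 also lost it without Nedd4L-cKO replicate 1 (adjusted p = 0.0724) and Mt1 without WT replicate 1 (adjusted p = 0.0517). Of 10 heat shock genes, Hspb1 alone passed, at 55.6, 55.0 and 51.4 RPM in WT and 169, 185 and 128 RPM in Nedd4L-cKO (log2 fold change 1.54, adjusted p = 0.0184). It lost the call without WT replicate 1 (adjusted p = 0.0502), WT replicate 2 (0.0730) or Nedd4L-cKO replicate 2 (0.105). The median log2 fold change of the 10 was 0.60, and 8 of them were above 0.

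Other measures moved with genotype beside these genes. The 13 mitochondrially encoded mRNAs summed to 27606 to 38740 RPM in WT and 57413 to 66263 RPM in Nedd4L-cKO MuSCs, and the 6 myofiber markers to 157 to 337 and 381 to 463 RPM. Neither pair of ranges overlapped. Of 10 MuSC markers 9 were lower in Nedd4L-cKO and 2 passed, Chrdl2 (log2 fold change −2.46, adjusted p = 0.00296) and Cd34 (−1.64, adjusted p = 0.0293). Of 8 myoblast and cycling markers 7 were higher and the cyclin gene Ccnb1 passed (log2 fold change 2.20, adjusted p = 0.0325). Among all genes tested, 50.1% had a log2 fold change above 0, 0.451% were called higher and 0.203% lower. The part of these measures in the result for Ier3 was not tested. The 7 fibro-adipogenic markers, led by Dcn, summed to 1562 to 2935 RPM in WT and 1325 to 3170 RPM in Nedd4L-cKO, and the 6 mural and Schwann cell markers, led by Rgs5, to 338 to 1195 and 478 to 2151 RPM. In pools of 1000 cells, fewer cells that express a gene and less RNA per cell cannot be told apart.

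The culture comparison asks what changes between freshly sorted MuSCs and the myoblasts they become. Of the 10 genes, 9 fell in myoblasts and none rose, and Jun was the exception. Fos and Fosb fell most, each by more than 8 on the log2 scale. Calls rested on an adjusted p of at most 0.05, by which 20.6% of 15345 genes tested were lower and 22.2% higher in myoblasts. The same 9 genes had groups that did not overlap, beside 55.2% of all genes tested. The median log2 fold change of the 10 was −3.32 and that of all genes tested was 0.04, which moved to 0.14 when each library was scaled to its own total. Isolation from tissue and the state of the cells cannot be told apart here. Fresh MuSCs were sorted from digested tissue directly into lysis buffer, while myoblasts were detached with trypsin and lysed after 3 days of culture.

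**Figure D4:**
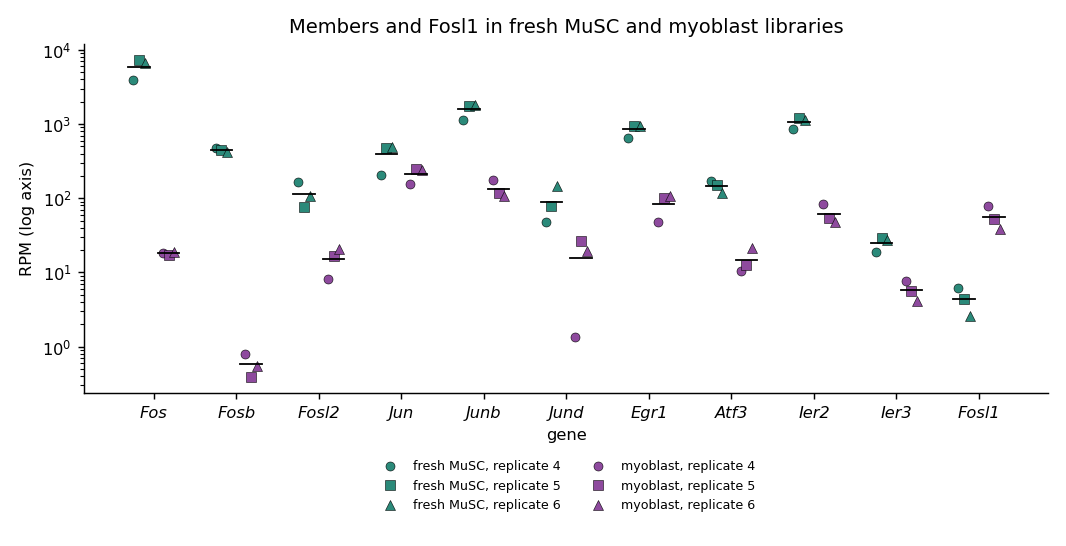
RPM of the 10 genes and of Fosl1 (log axis) in 3 fresh MuSC libraries (green) and 3 myoblast libraries of the same numbers (purple), with symbols for replicates and horizontal lines for group means. Fos drops from 3944 to 7348 RPM to 17.4 to 18.8 RPM, Jun overlaps between the groups, and Fosl1 is higher in all 3 myoblast libraries.

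Fos measured 3944, 7348 and 6632 RPM in fresh MuSCs and 18.2, 17.4 and 18.8 RPM in myoblasts. The 3 myoblast libraries differed by 1.08-fold from lowest to highest, and the fitted log2 fold change was −8.24 (SE 0.24, adjusted p = 2.7e-07). Fosb measured 470.5, 450.8 and 426 RPM in fresh MuSCs and 0.801, 0.385 and 0.538 RPM in myoblasts. Its level in myoblasts was below the pseudocount of 1 RPM, so the fitted log2 fold change of −8.17 (SE 0.23, adjusted p = 2.7e-07) depended on it and ran from −9.42 to −6.35 over 17 alternatives. Fosl2 fell less, from 163, 75.8 and 108 RPM to 8.07, 16.9 and 20.6 RPM (log2 fold change −2.87, SE 0.39, adjusted p = 0.000488). Fosl1 went the other way, from 6.15, 4.34 and 2.60 RPM to 78.8, 52.1 and 38.0 RPM (log2 fold change 3.41, SE 0.37, adjusted p = 0.000155).

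Junb and Jund fell, and Jun did not pass the test. Junb measured 1145, 1759 and 1829.7 RPM in fresh MuSCs and 179, 116 and 108 RPM in myoblasts, with no overlap (log2 fold change −3.55, SE 0.26, adjusted p = 1.8e-05). Jun measured 206, 481 and 496 RPM in fresh MuSCs and 155, 249.7 and 239.9 RPM in myoblasts. Fresh replicate 4 lay within the myoblast range, although in each pair of libraries with the same number Jun was higher before culture than after it. The difference did not pass (log2 fold change −0.80, SE 0.35, adjusted p = 0.0953), but passed with the mouse as a block (adjusted p = 0.0201), after centring by GC content (log2 fold change −1.08, adjusted p = 0.0319) and without fresh replicate 4 (log2 fold change −1.21, adjusted p = 0.00782). Jund measured 48.2, 78.3 and 144 RPM in fresh MuSCs and 1.34, 26.1 and 19.6 RPM in myoblasts. Its 3 myoblast libraries differed by 19.5-fold, the widest spread of the 10 genes in any group (log2 fold change −2.92, SE 0.84, adjusted p = 0.0208). The Jund call was lost without fresh replicate 5 (adjusted p = 0.0562) or fresh replicate 6 (adjusted p = 0.0765), and without myoblast replicate 4 the log2 fold change was −1.81.

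**Figure D5:**
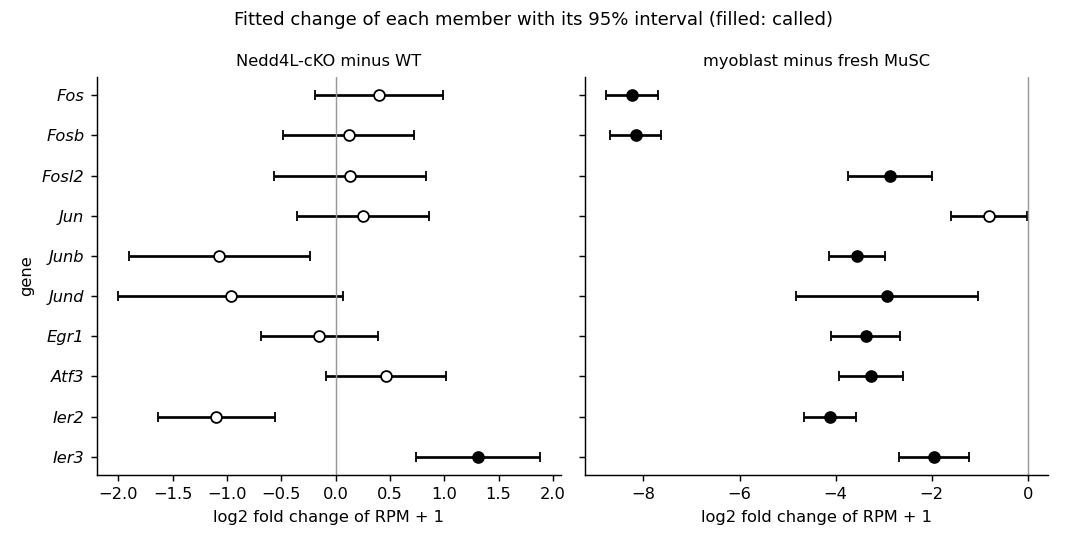
Fitted log2 fold change of each of the 10 genes with its 95% interval, for Nedd4L-cKO minus WT MuSCs (left) and myoblasts minus fresh MuSCs (right, with a wider axis), where filled points passed the thresholds of their comparison. Ier3 at 1.31 is the filled point on the left, and Jun at −0.80 is the open point on the right.

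Egr1, Atf3, Ier2 and Ier3 also fell, with log2 fold changes between those of Fos and Jun. Egr1 measured 639, 954 and 944 RPM in fresh MuSCs and 47.1, 99.4 and 107 RPM in myoblasts (log2 fold change −3.37, SE 0.32, adjusted p = 7.1e-05). Atf3 measured 173, 151 and 116 RPM in fresh MuSCs and 10.4, 12.7 and 21.5 RPM in myoblasts (log2 fold change −3.26, SE 0.30, adjusted p = 5.6e-05). Ier2 measured 862, 1202 and 1149.6 RPM in fresh MuSCs and 82.9, 54.7 and 48.0 RPM in myoblasts (log2 fold change −4.12, SE 0.24, adjusted p = 6.3e-06). For Ier3, the levels were 19.0, 29.1 and 27.3 RPM in fresh MuSCs and 7.62, 5.68 and 4.12 RPM in myoblasts (log2 fold change −1.95, SE 0.32, adjusted p = 0.00151). None of the 4 overlapped between groups, and all 4 passed in each of 17 alternatives. Fresh replicate 4 was the lowest fresh library for 7 of the 10 genes: Fos, Jun, Junb, Jund, Egr1, Ier2 and Ier3.

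The wider AP-1 superfamily changed in both directions in culture. Of its 20 tested genes, 5 rose and 8 fell, beside 22.2% of all genes tested that rose and 20.6% that fell. The median log2 fold change of the 20 was −0.32. Beside Fosl1, Nfe2l1, a regulator of proteasome genes, rose from 30.4, 31.5 and 23.1 RPM to 81.0, 106 and 98.5 RPM (log2 fold change 1.72, adjusted p = 0.000383), and the small Maf protein Mafg rose with a log2 fold change of 1.39. Cebpd, a bZIP factor induced by cytokines, fell from 195, 402 and 307 RPM to 10.03, 9.10 and 10.8 RPM (log2 fold change −4.73, adjusted p = 6.2e-06). Maf and Cebpb fell with log2 fold changes of −2.98 and −2.68, and Maff with −2.14. Jdp2, a repressor that pairs with Jun, fell with a log2 fold change of −1.07 (adjusted p = 0.0317), which was 0.0589 with the mouse as a block. The Jdp2 call was lost in 7 of 17 alternatives, including without fresh replicate 4 (log2 fold change −0.74, adjusted p = 0.0848), without fresh replicate 5 and without any one myoblast library. Atf4 measured 137, 107 and 111 RPM in fresh MuSCs and 113, 92.8 and 100.1 RPM in myoblasts, with overlap.

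Other immediate early genes mostly fell as well, 27 of 52 against 7 that rose, with a median log2 fold change of −1.21. The shares over all genes tested were 20.6% that fell and 22.2% that rose. Fosl1 and Maff are counted both here and in the wider AP-1 superfamily, so the counts of these lists are not separate. Among the largest falls, Nr4a1 went from 619, 467 and 399 RPM to 5.50, 6.72 and 10.2 RPM (log2 fold change −5.89, adjusted p = 1.6e-06). Zfp36, which destabilizes AU-rich mRNAs, went from 187, 265 and 276 RPM to 3.71, 5.19 and 6.66 RPM (log2 fold change −5.31, adjusted p = 3.1e-06), and its relative Zfp36l1 changed by −4.57 on the log2 scale. The antiproliferative gene Btg2 fell from 1481, 1807 and 1736 RPM to 75.1, 67.6 and 84.2 RPM. Dusp1, which switches off MAP kinases, fell from 2121, 3370 and 2801 RPM to 129, 164 and 255 RPM (log2 fold change −3.95). Klf4, Klf6, Egr2, Egr3 and Myc fell with log2 fold changes of −4.16, −2.85, −3.10, −2.40 and −2.45, and Gadd45b and Ccn1 with −1.43 and −1.56.

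The genes of this class that rose included Arc, from 0.214, 1.49 and 0.486 RPM to 14.1, 25.7 and 20.7 RPM (log2 fold change 3.64, adjusted p = 0.00014), and the nuclear receptor Nr4a2, from 4.204, 1.56 and 2.32 RPM to 12.2, 81.2 and 33.4 RPM (log2 fold change 3.24, adjusted p = 0.00298). Nr4a1 and Nr4a2, which are close paralogs, therefore had opposite calls. Dusp6, the ERK phosphatase, measured 146, 183 and 169 RPM in fresh MuSCs and 121, 165 and 136 RPM in myoblasts, which overlap (log2 fold change −0.25, adjusted p = 0.333).

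Of 33 tested genes of the MAP kinases and serum response factor, 10 rose and 7 fell, with a median log2 fold change of 0.44, beside 22.2% of all genes tested that rose and 20.6% that fell. Elk1, the partner of serum response factor, rose from 3.89, 3.63 and 1.82 RPM to 19.0, 24.9 and 27.1 RPM (log2 fold change 2.61, adjusted p = 0.000391). The kinases Rps6ka1 and Mapkapk3 rose with log2 fold changes of 3.33 and 2.41. Map3k8, Map3k5 and Map2k6 fell with −2.07, −2.03 and −1.80, and Mapk9, a Jun kinase, fell from 162, 115 and 113 RPM to 54.1, 62.6 and 62.0 RPM (log2 fold change −1.10). Srf itself measured 26.3, 10.1 and 12.2 RPM in fresh MuSCs and 3.62, 7.99 and 7.82 RPM in myoblasts without passing (log2 fold change −1.15, adjusted p = 0.0598). Of 17 genes for AP-1 turnover and cofactors, 2 rose, Fosl1 and Crtc2 (log2 fold change 0.97), and 4 fell, among them the Egr corepressor Nab1 (−2.38). Fosl1 and Jdp2 are counted here and in the wider AP-1 superfamily. Crtc2 lost its call in 3 of 17 alternatives (adjusted p up to 0.0813) and Map3k8 in 2 (up to 0.0537).

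Genes described as AP-1 targets changed in both directions, with 10 higher and 9 lower in myoblasts of 22 tested, and this list contains Jund. Across all genes tested, 22.2% were higher and 20.6% lower. Spp1, which encodes osteopontin, measured 0.196, 0.00 and 0.0739 RPM in fresh MuSCs and 9233, 16661 and 13665 RPM in myoblasts. Timp1 rose from 1.06, 4.44 and 4.43 RPM to 94.9, 144 and 134 RPM and Hmox1 from 8.15, 10.8 and 9.18 RPM to 84.6, 80.1 and 61.6 RPM. Ccl2 fell from 27.5, 33.3 and 29.6 RPM to 0.324, 0.162 and 0.268 RPM, Mt2 from 101, 205 and 229 RPM to 3.48, 3.34 and 6.38 RPM, and Col1a1 from 37.9, 112 and 91.4 RPM to 0.223, 0.400 and 0.336 RPM. Those 3 groups did not overlap, and Col1a1 is also on the list of fibro-adipogenic markers. Of 10 heat shock genes, 1 rose and 4 fell. Hspa1a fell from 16.6, 59.5 and 40.2 RPM to 0.669, 0.999 and 3.30 RPM, Hspa1b from 17.2, 47.3 and 32.1 RPM to 2.45, 4.02 and 3.96 RPM, and Dnajb1 from 446, 354 and 292 RPM to 87.4, 75.5 and 65.8 RPM.

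Markers of other states moved with the 9 falling genes. Of 10 MuSC markers 8 fell, and of 6 myofiber markers 5 rose, beside 20.6% of all genes tested that fell and 22.2% that rose. The 6 myofiber markers summed to 111 to 337 RPM in fresh MuSCs and 8275 to 18385 RPM in myoblasts, led by Acta1 in both groups. Of 8 myoblast and cycling markers 3 rose and 0 fell. Their sum, led by Myog, was 1576 to 1932 RPM in fresh MuSCs and 6851 to 7616 RPM in myoblasts. The 7 fibro-adipogenic markers summed to 1402 to 1932 RPM in fresh MuSCs and 135 to 178 RPM in myoblasts, led by Gsn in both groups, and Ly6a, which the sort excluded, averaged 0.152 and 1.94 RPM. The part of these markers in the fall of Fos and its relatives was not tested.

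Genes whose pattern was most like that of Fos were found by the root mean square difference of log2(RPM + 1), centred in each table, over the 12 libraries, among 14343 genes tested in both tables. Fosb was the nearest (0.29), followed by Bmp4 (0.38), Gstt1 (0.40), Prelp (0.45) and Serping1 (0.47). The other 8 genes ranked between 147 (Ier2, 1.60) and 2780 (Jun, 2.65). The mean of the 10 genes was most closely followed by Iqgap2 (0.23), Egr1 (0.26), Pdlim4 (0.29), Scd1 (0.29) and Nfatc2 (0.29). The step between fresh MuSCs and myoblasts makes up most of these patterns, and the libraries of a table share their normalization.

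Set side by side, the WT MuSCs of the 2 tables were alike for some of the genes and apart for others. Egr1 averaged 856 ± 130 RPM (SD, n = 3) in the genotype table and 846 ± 179 RPM (SD, n = 3) in the culture table. Ier2 averaged 387 ± 57.5 and 1071 ± 183 RPM and Junb 770.3 ± 255 and 1578 ± 376 RPM, each higher in the culture table. Fosl2 averaged 235 ± 64.8 and 116 ± 44.3 RPM and Atf3 223 ± 43.7 and 147 ± 28.7 RPM, each lower in the culture table. The ranges of Ier2, Junb, Fosl2 and Atf3 did not overlap between the tables. Normalization and mice both differ between the tables and cannot be told apart from a difference in level. Other measures differed too. The mural gene Rgs5 averaged 628 RPM in the genotype table and 9.82 RPM in the culture table. Mitochondrially encoded mRNAs summed on average to 32106 and 12647 RPM. The part of these measures was not tested.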

How the data were processed

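SMART-seq libraries of 1000 cells from 4 groups of 3 were analysed. The authors quantified transcripts with kallisto 0.46.1 on the GENCODE M28 basic annotation, imported gene sums through tximport and normalized these with DESeq2 (version not given in the sources used here). The deposited values are a signal, namely normalized counts, in a separate table for each comparison. Low values were whole multiples of a common step in 48.7% to 65.7% of cases, so reads were not recovered and no count model was used. The deposited fold changes, p-values and RPM columns of the authors were not used.

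RPM were obtained by dividing by the average library total of each table. Genes that reached 10 normalized counts in 3 or more libraries were tested on log2(RPM + 1) in R 4.3.3 with limma 3.58.1, with its trend and robust options and group alone in the model. Adjusted p-values are Benjamini-Hochberg values over every gene tested. Alternatives changed the scaling, pseudocount, filter, limma options and replicate block, left out single libraries, and centred values by GC content. Fold changes on this scale understate changes of low genes. An exact permutation test of 3 libraries against 3 cannot go below p = 0.1. Replicates were separate mice, and fresh and myoblast libraries of the same number were taken to come from the same mouse. The labels give the shared number only, and the correlations of their deviations were −0.03, −0.01 and 0.02.

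The genes and lists were chosen with earlier results of these data known. Named genes were the 10, fixed members of each list, and the 3 largest called changes of each list in each direction without overlap. Markers of cell types and states, such as Chrdl2, Cd34, Ccnb1, Tek, Pecam1 and Lyz2, were named after their values were seen. So were Map3k8 and Ppp1r15a in the genotype comparison. Positions, lengths and GC content came from GENCODE M39 on GRCm39, the build of the authors' annotation. limma was tested on simulated data. Python 3.11.15 and matplotlib 3.10.9 drew the figures.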

Additional observations from a re-analysis of the deposited data

How the results depend on the processing

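Between genotypes, the Ier3 call was lost, leaving 0 genes of the 10 called higher, when each library was scaled to its own total, with or without mitochondrial genes, with a pseudocount of 0.1 or 5, without the filter, without limma's trend and robust options, and with the replicate block alone or with centring by GC content. It held with median-of-ratios factors, with the strict filter, with centring by GC content and with the adjusted p alone. Requiring 10 normalized counts in all 6 libraries called 1 gene lower (Ier2, adjusted p = 0.0385). Over all genes, 100 calls became 195 with that filter, 41 without trend and robust options and 62 with the replicate block. Leaving out single libraries gave 0 of the 10 called higher, 0 to 1 called lower and 17 to 148 genes called in all. The 100 calls became 62, 32, 49 and 17 without WT replicates 1 and 2 and Nedd4L-cKO replicates 1 and 2.

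The sign of Fosb turned when libraries were scaled to their own totals (log2 fold change −0.011) and its log2 fold change ranged from −0.11 to 0.28 over the libraries left out. The log2 fold change of Fosl2 ranged from −0.080 to 0.46 over the libraries left out, below 0 without WT replicate 3 (−0.080), Nedd4L-cKO replicate 2 or Nedd4L-cKO replicate 3. Scaling to own totals moved the median of all genes from 0.00 to −0.09.

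Genotype replicates share only a number (correlations of deviations 0.02, −0.02 and −0.18). With the mouse as a replicate block in the culture comparison, the calls for Jun and Jdp2 changed and those of the other 9 genes did not. Leaving out single libraries gave 8 to 10 of the 10 called lower and 0 called higher. Other alternatives gave 9 or 10 lower. Alternatives for base composition and for the adjusted p alone were chosen after seeing the data. The read depth is unknown, so its part in the precision was not tested.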
